A study of Homo sapiens with 6 samples.

Results

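The genes described here encode the machinery of oxidative phosphorylation, chosen by symbol from a table of normalised expression: those that start with NDUFA, NDUFB, NDUFC, NDUFS, NDUFV, SDH, UQCR, COX4 to COX8, ATP5, MT-ND, MT-CO, MT-ATP or MT-CYB, and CYC1. Of 106 matching symbols among 13439 listed genes, 102 had a mean of at least 1 CPM (counts scaled to library size by TMM) over the 6 samples, and these are the members. Of them 89 are nuclear genes and 13 are genes of the mitochondrial genome. The 4 symbols under that mean were NDUFA4L2, ATP5EP2, ATP5L2 and COX6A1P2. COX6A1P2 came closest with a mean of 0.195 CPM, and the member nearest above it was the readthrough transcript ATP5J2-PTCD1 with 4.11 CPM. By role, the nuclear members comprise 76 subunits, 11 assembly factors and 2 others, which are ATP5J2-PTCD1 and ATP5S.

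The samples were cultures of Saos-2, an established human osteosarcoma line. One group of 3 was treated for 24 h with AIL at 0.20 µM, a dose that the labels call the IC50. The other group of 3 received DMSO for the same time. AIL is ailanthone, a plant quassinoid, and the labels name no genetic change in either group. All are called biological replicates without a statement of how the cultures were kept apart, so the p-values measure the spread between these samples.

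Oxidative phosphorylation is carried out in the inner mitochondrial membrane. Complex I takes electrons from NADH and complex II from succinate, ubiquinone carries them to complex III, and cytochrome c carries them on to complex IV, which reduces oxygen. Complexes I, III and IV pump protons, and complex V, the ATP synthase, uses the gradient to make ATP. Complex II is encoded wholly in the nucleus, whereas the other complexes join nuclear subunits to a few made inside the mitochondrion from its own genome, so the stock of each complex draws on both sets of transcripts.

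Depth read from the low values was 35910000 to 38050000 TMM-scaled reads per AIL library and 32540000 to 35830000 per DMSO library. Of 9 osteoblast-lineage markers, 4 had rows: RUNX2 stood at 4.36 to 5.04 CPM, and SPARC, SPP1 and BGLAP reached at most 0.28 CPM in any sample. The other 5 were not analysed here. The epithelial keratin gene KRT18 stood at 626.0 to 745.1 CPM. CDH5 and VWF, markers of endothelium, reached at most 0.16 CPM. The labelled lineage was thus borne out only by low RUNX2, and the samples are called Saos-2 after their labels.

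Most nuclear genes for this machinery rose under AIL, and most mitochondrial ones fell. Of the 89 nuclear members, 52 rose (58.4%) and 6 fell under AIL (6.74%) at a limma adjusted p under 0.05, with a median log2 difference of 0.11. Of the 13 mitochondrial members, 10 fell (76.9%) and 0 rose, with a median of -0.20. Over all 11069 genes tested, 28.2% were called higher and 25.9% lower, 54.1% in all, and the median was 0.01. These shares are also the background for the counts of each complex and subgroup given below. Every log2 difference given is that of log2(CPM + 1), with DMSO subtracted from AIL. The groups did not overlap, with AIL above, for 51 nuclear members, beside 30.9% of all genes tested (60.1% in either direction), and for 0 mitochondrial ones. AIL lay below without overlap for 10 mitochondrial members, beside 29.2% of all genes, and for 6 nuclear ones. The rule that chose the genes used names and abundance alone, but earlier results for several of them were known, so the counts are given as a description of the list.

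**Figure D1:**
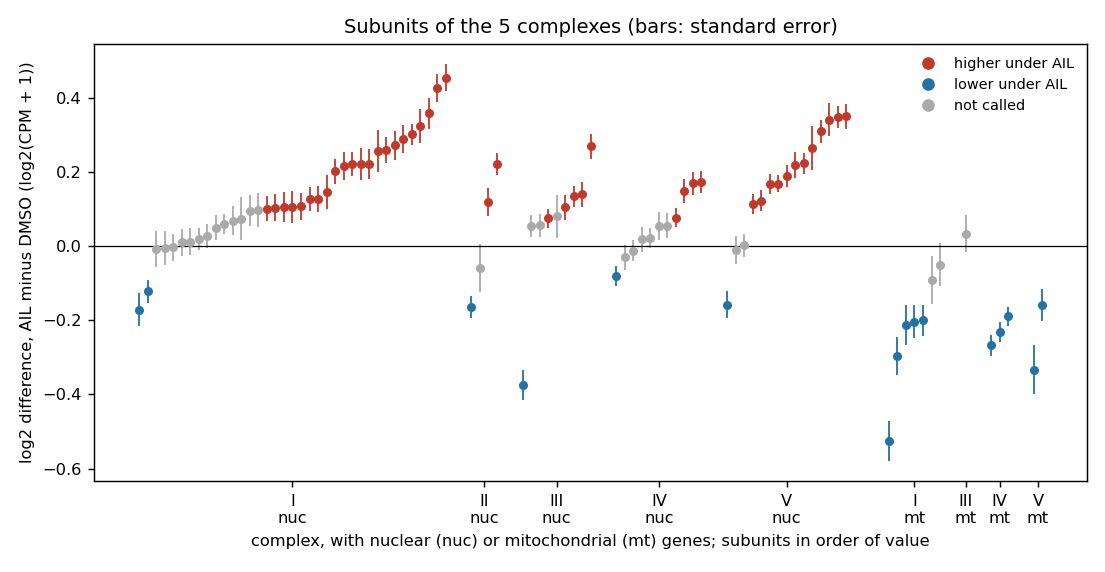
Log2 difference between AIL and DMSO for each subunit (y axis, log2(CPM + 1) scale), grouped on the x axis by complex and by nuclear or mitochondrial genome. Points are subunits, bars are standard errors, and colour gives the limma call. Nuclear subunits of complexes I, III, IV and V lie mostly above 0, and 12 of 13 mitochondrial ones lie below it.

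Most single genes changed by small amounts, and their sums did not overlap between the groups. CPM summed over the nuclear members was 9834, 9511 and 9630 in AIL libraries 1 to 3, against 8872, 8860 and 8879 in DMSO libraries 1 to 3. All AIL libraries stood above all DMSO libraries, by 8.88% in the means. The mitochondrial members summed to 3689, 3601 and 3726 CPM under AIL, against 4285, 4374 and 4205 CPM under DMSO, a difference of -14.4%. Mitochondrial transcripts therefore made up 27.5% ± 0.318 of the members' CPM in AIL cells and 32.6% ± 0.454 in DMSO cells (SD, n = 3 each). These are bulk libraries, in which fewer cells of a kind and less RNA per cell cannot be told apart.

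**Figure D2:**
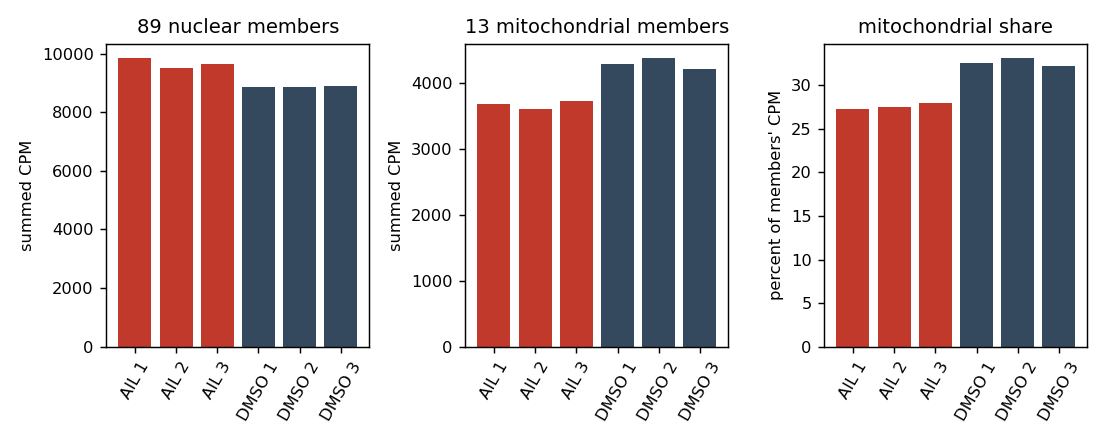
Summed CPM of the 89 nuclear members (left) and the 13 mitochondrial members (middle), and the mitochondrial share of both in percent (right), with 1 bar per library. The AIL libraries are higher in the left panel and lower in the other panels, with no overlap between the groups.

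The mitochondrial genome encodes 7 subunits of complex I, 1 of complex III, 3 of complex IV and 2 of complex V. Its strands are copied as long precursors that are cut into separate messages, and MT-ND6 is the protein gene read from the light strand. MT-ND6, a membrane subunit of complex I, had the lowest difference of the 102 members. It stood at 11.7, 11.6 and 11.9 CPM in the AIL libraries, against 16.6, 17.2 and 18.2 CPM in the DMSO libraries, a difference of -32.3% (log2 difference -0.53, SE 0.0551, limma adjusted p = 4.17e-07). The 3 AIL values lay within 0.3 CPM of each other and well under every DMSO value. Use of strand in the counting is not given in the sources used here, so reads from the strand opposite MT-ND6 cannot be told apart from its own.

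MT-CO1, MT-CO2 and MT-CO3 encode the catalytic core of complex IV, and all fell. MT-CO1 had 1520, 1469 and 1548 CPM under AIL, against 1820, 1864 and 1779 CPM under DMSO (log2 difference -0.27, SE 0.0275, limma adjusted p = 3.29e-07; -0.46 with quantile normalization). MT-CO2 had 347.7, 350.5 and 352.7 CPM under AIL, against 422.2, 417.3 and 394.9 CPM under DMSO (-0.23, limma adjusted p = 1.78e-06). MT-CO3 had 1503, 1449 and 1466 CPM under AIL, against 1678, 1707 and 1654 CPM under DMSO (-0.19, limma adjusted p = 7.36e-06; -0.36 with quantile normalization). In none of them did the groups overlap. These genes dominate the mitochondrial sum: MT-CO1 and MT-CO3 made up 81.3% of it in AIL cells and 81.6% in DMSO cells. The other 10 mitochondrial genes together summed to 318.6, 332.1 and 359.0 CPM under AIL, against 364.8, 385.1 and 376.8 CPM under DMSO, so all AIL libraries were lower outside the MT-CO genes too.

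Both mitochondrial subunits of ATP synthase fell. MT-ATP6, which lines the proton channel, averaged 45.6 ± 2.99 CPM in AIL cells and 51.0 ± 0.913 CPM in DMSO cells (SD, n = 3 each; log2 difference -0.16, limma adjusted p = 0.00481). MT-ATP8, whose reading frame overlaps that of MT-ATP6 on the same message, averaged 6.78 ± 0.179 CPM in AIL cells and 8.80 ± 0.362 CPM in DMSO cells (-0.33, limma adjusted p = 3.56e-04). Of the complex I genes besides MT-ND6, MT-ND1 differed by -19.1%, MT-ND2 by -13.9%, MT-ND5 by -13.4% and MT-ND4 by -13.04%, and all 4 fell. Their limma adjusted p-values ran from 1.09e-04 to 0.00313, and in each all AIL libraries lay below all DMSO libraries.

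The remaining 3 mitochondrial genes did not pass the test. MT-CYB encodes cytochrome b of complex III. It had 67.9, 64.5 and 76.6 CPM under AIL, against 66.7, 71.7 and 65.4 CPM under DMSO (log2 difference 0.03, SE 0.0501, limma adjusted p = 0.594). These groups overlapped, and both the highest and the lowest value of the 6 came from AIL libraries. MT-ND3 averaged 39.2 ± 2.87 CPM in AIL cells and 40.7 ± 3.79 CPM in DMSO cells, and MT-ND4L averaged 10.6 ± 0.719 CPM in AIL cells and 11.3 ± 0.415 CPM in DMSO cells (SD, n = 3 each). MT-ND4L shares its message with MT-ND4, which fell, and its own log2 difference was -0.09 (SE 0.0637). The ratio of MT-CYB to MT-CO1 was 0.0460 ± 0.00299 under AIL and 0.0373 ± 0.00102 under DMSO, with all AIL values above all DMSO values. An exact two-sided permutation test of that ratio gave p = 0.1, the smallest that 3 against 3 samples allow (4 ratios of members, picked after their values were seen, all gave 0.1, and 0.1 after Benjamini-Hochberg adjustment).

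**Figure D3:**
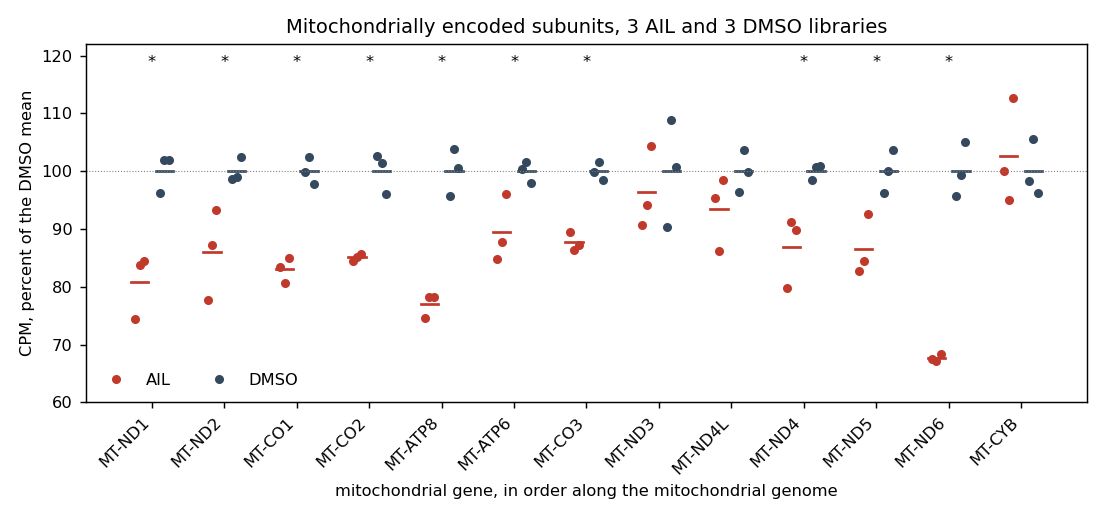
CPM of each mitochondrial gene in each library as a percent of that gene's DMSO mean (y axis), with genes in their order along the mitochondrial genome (x axis). Points are libraries, lines are group means and asterisks mark genes called by limma. MT-ND6 is lowest, near 68% of DMSO, and AIL and DMSO points overlap for MT-ND3, MT-ND4L and MT-CYB.

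Levels per transcript length were far apart within the mitochondrial genome. In AIL cells MT-CO3 averaged 1879, MT-CO1 981 and MT-CO2 512 CPM per kilobase, and the other 10 genes ranged from 113 (MT-ND3) to 21.1 (MT-ND5). In DMSO cells the same genes stood at 2143, 1181 and 602, and the others from 117.6 (MT-ND3) to 24.3 (MT-ND5) CPM per kilobase. The order of the top 3 was thus kept in both groups, and MT-ND6 changed places with MT-ND2 and MT-ND1: it averaged 22.3 ± 0.217 CPM per kilobase under AIL, below MT-ND1 with 25.0 ± 1.72, against 33.0 ± 1.57 under DMSO, above MT-ND1 with 30.9 ± 1.03. The DMSO means of MT-ND6 and MT-ND1 differed by less than the sum of their SDs. Copies of mitochondrial sequence in the nuclear genome can share reads with several of these genes. Of the 50-base words of MT-CO1, 49.5% also occur in another annotated GENCODE gene, mainly the pseudogene MTCO1P12. The share was 46.7% for MT-ATP6, 43.6% for MT-ND2, 30.6% for MT-CO3, 28.98% for MT-CO2, 22.1% for MT-ND1 and 17.9% for MT-ND6, so reads of these genes may be split with such copies; the share of reads affected was not measured.

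Complex I is the largest complex, with a matrix arm that holds the flavin and iron-sulphur centres and a membrane arm that pumps protons. Of its 37 nuclear subunits, 22 rose and 2 fell. The strongest changes were among accessory subunits, which surround the catalytic core: 8 of 11 NDUFB subunits, of the outer part of the membrane arm, rose with a median of 0.22, and 0 fell. NDUFB10 led the subunits. It had 69.8, 68.7 and 64.8 CPM under AIL, against 49.2, 50.5 and 47.8 CPM under DMSO, 37.7% higher (log2 difference 0.45, SE 0.0370, limma adjusted p = 2.22e-08). NDUFV3, an accessory subunit at the NADH-binding tip, had 56.8, 58.8 and 55.8 CPM under AIL, against 41.2, 43.8 and 41.8 CPM under DMSO (0.43, limma adjusted p = 5.29e-08). NDUFS4, an accessory subunit known for mutations in Leigh syndrome, had 58.3, 56.7 and 62.4 CPM under AIL, against 43.9, 45.7 and 48.2 CPM under DMSO (0.36, limma adjusted p = 2.00e-06). In these subunits every AIL library stood above every DMSO library.

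The 7 nuclear core subunits of complex I, which bear the redox centres in bacteria as well, gave a mixed count: 3 rose, 1 fell and 3 did not pass, with a median of 0.10. Among those that rose, NDUFS7 and NDUFS8 did so by 0.26 and 0.14 on the log2 scale (limma adjusted p = 9.81e-04 and 0.0140). The NDUFS8 groups overlapped. NDUFS1, the nuclear complex I subunit with the most reads, averaged 221.9 ± 5.42 CPM in AIL cells and 212.9 ± 2.04 CPM in DMSO cells (SD, n = 3 each; 0.06, limma adjusted p = 0.0669; with the replicate number as a block 0.0297). NDUFV2, an iron-sulphur subunit, fell, with 88.6, 86.6 and 89.95 CPM under AIL, against 94.2, 95.4 and 99.3 CPM under DMSO (-0.12, limma adjusted p = 0.00290). The accessory subunit NDUFA2 fell as well, with 23.5, 22.3 and 23.6 CPM under AIL, against 26.2, 26.1 and 26.3 CPM under DMSO (-0.17, limma adjusted p = 0.00356). Of the 13 accessory NDUFA subunits 7 rose, led by NDUFA3 (0.32), a small membrane-arm subunit. Complex I thus held transcripts that moved both ways: its 7 mitochondrial subunits had a median of -0.20 and its nuclear ones of 0.10.

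Complex II oxidises succinate and is the member of the set that also belongs to the tricarboxylic acid cycle. Its 4 subunits split. SDHA, which carries the flavin, fell to 173.4, 174.8 and 163.4 CPM under AIL, against 191.5, 191.0 and 190.9 CPM under DMSO (log2 difference -0.16, SE 0.0288, limma adjusted p = 1.22e-04). SDHB, the iron-sulphur subunit that binds SDHA, rose to 153.4, 149.9 and 148.4 CPM under AIL, against 130.9, 130.9 and 125.4 CPM under DMSO (0.22, SE 0.0284, limma adjusted p = 4.78e-06). Neither pair of groups overlapped. The ratio of SDHA to SDHB reads was 1.13 ± 0.0325 under AIL and 1.48 ± 0.0351 under DMSO (SD, n = 3 each; exact permutation p = 0.1, the smallest possible). Of the membrane anchors, SDHC averaged 46.5 ± 0.524 CPM in AIL cells and 42.8 ± 1.69 CPM in DMSO cells (0.12, limma adjusted p = 0.0141). That call was lost without AIL replicate 1 (limma adjusted p = 0.0531) and without DMSO replicate 1 (0.0943). SDHD had 10.8 ± 0.368 CPM under AIL and 11.3 ± 0.830 CPM under DMSO and did not pass (limma adjusted p = 0.453). The sum over the 4 subunits differed by 1.11%, less than the SD of the AIL libraries.

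**Figure D4:**
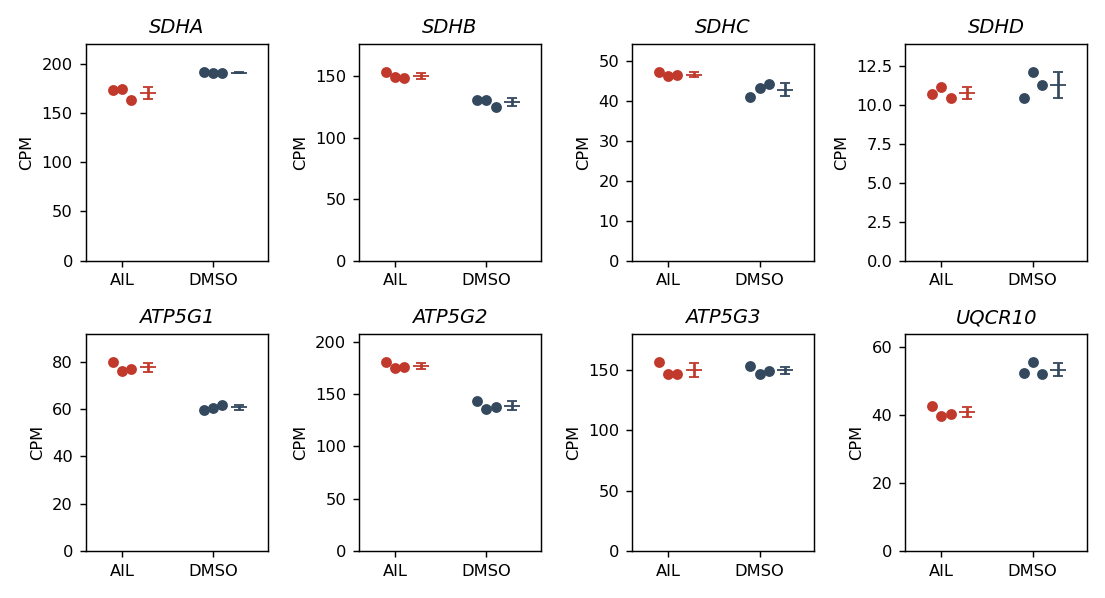
CPM (y axes, from 0) of the 4 complex II subunits, the 3 c-ring genes of ATP synthase and UQCR10, by group. Points are libraries, and the bar beside them gives the mean and SD of 3 libraries. SDHA and UQCR10 are lower and SDHB, ATP5G1 and ATP5G2 higher under AIL without overlap, while ATP5G3 and SDHD overlap.

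Complex III passes electrons from ubiquinol to cytochrome c. Of its 9 nuclear subunits, 5 rose and 1 fell. CYC1, the cytochrome c1 subunit, had 259.8, 254.8 and 237.4 CPM under AIL, against 211.5, 213.3 and 199.0 CPM under DMSO, 20.5% higher (limma adjusted p = 4.38e-06). UQCRQ and UQCRB, small subunits near cytochrome b, rose by 0.14 and 0.13 on the log2 scale. UQCR10, another small subunit, was the lowest of all nuclear members. It had 42.6, 39.6 and 40.3 CPM under AIL, against 52.3, 55.5 and 52.0 CPM under DMSO, a difference of -23.3% (log2 difference -0.37, SE 0.0398, limma adjusted p = 4.78e-07). Its AIL values lay at least 9 CPM under the lowest DMSO value, while 8 of the 9 nuclear subunits had differences above 0. UQCRFS1, the Rieske iron-sulphur protein, averaged 126.7 ± 2.68 CPM in AIL cells and 121.9 ± 4.23 CPM in DMSO cells and did not pass (limma adjusted p = 0.140).

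Among complexes with mitochondrial subunits, the nuclear part of complex IV had the lowest median, 0.05. Of 11 nuclear subunits, counting NDUFA4, which is now assigned to this complex, 4 rose (36.4%) and 1 fell (9.09%). Of all genes tested, 28.2% rose and 25.9% fell. COX5A had 88.1, 85.2 and 88.0 CPM under AIL, against 78.0, 77.7 and 75.8 CPM under DMSO (log2 difference 0.17, limma adjusted p = 1.30e-04). COX6B1 and COX7B, also accessory subunits around the catalytic core, rose by 0.17 and 0.15. COX6C had 156.0, 151.2 and 159.0 CPM under AIL, against 161.8, 166.0 and 165.4 CPM under DMSO (-0.08, limma adjusted p = 0.0203). The call for COX6C was lost in 5 of 15 alternative settings, namely without the intensity trend (limma adjusted p = 0.0765), with quantile normalization (-0.05, 0.102) and on leaving out AIL replicate 2 (-0.06, 0.0828), DMSO replicate 2 (-0.07, 0.0846) or DMSO replicate 3 (-0.08, 0.0611). COX4I1, the most read of these subunits, averaged 271.2 ± 7.59 CPM in AIL cells and 267.1 ± 4.45 CPM in DMSO cells (0.02, limma adjusted p = 0.518). COX6A1, COX7A2 and NDUFA4 had log2 differences of -0.01, -0.03 and 0.02 and did not pass. NDUFA4L2, a relative of NDUFA4 known to be induced by hypoxia, stayed at 0.17 to 0.25 CPM under AIL and 0.06 to 0.27 CPM under DMSO.

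ATP synthase had the highest share of subunits that rose, 12 of 15, with 1 that fell and a median of 0.19. In the catalytic F1 head, ATP5B (beta) had 844.5, 826.8 and 834.0 CPM under AIL, against 754.2, 735.6 and 739.6 CPM under DMSO (log2 difference 0.17, SE 0.0237, limma adjusted p = 1.30e-05; 0.07 with quantile normalization). ATP5A1 (alpha), ATP5E (epsilon) and ATP5D (delta) rose by 0.11, 0.12 and 0.26. ATP5C1 (gamma), the central shaft, fell, with 135.6, 129.2 and 147.0 CPM under AIL, against 152.1, 153.1 and 154.2 CPM under DMSO (-0.16, limma adjusted p = 0.00144). The ratio of ATP5C1 to ATP5B was 0.164 ± 0.0105 under AIL and 0.206 ± 0.00387 under DMSO (SD, n = 3 each; exact permutation p = 0.1). In the peripheral stalk ATP5H, ATP5O and ATP5F1 rose by 0.31, 0.22 and 0.17, and ATP5J had a difference of -0.01 that did not pass. The membrane subunits ATP5I, ATP5J2 and ATP5L rose by 0.34, 0.22 and 0.19.

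The c ring, which turns as protons pass, is built from a mature protein that is the same for the 3 genes ATP5G1, ATP5G2 and ATP5G3. ATP5G1 had 79.6, 75.9 and 77.0 CPM under AIL, against 59.6, 60.5 and 61.9 CPM under DMSO (log2 difference 0.35, SE 0.0327, limma adjusted p = 1.13e-07). ATP5G2 had 180.1, 174.8 and 176.2 CPM under AIL, against 143.6, 136.0 and 137.1 CPM under DMSO (0.35, SE 0.0286, limma adjusted p = 2.38e-08). ATP5G3 had 156.4, 146.6 and 147.0 CPM under AIL, against 153.2, 146.9 and 149.2 CPM under DMSO (0.00, SE 0.0306, limma adjusted p = 0.972). The first pair of genes rose without overlap, whereas the ATP5G3 groups overlapped. The ratio of ATP5G1 to ATP5G3 was 0.517 ± 0.00730 under AIL and 0.405 ± 0.0139 under DMSO (exact permutation p = 0.1).

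The promoters of 3 nuclear subunits that fell are shown beside those of 2 that rose, picked after their values and letters were seen, since nuclear respiratory genes are known for sites of NRF1, of ETS factors such as GABP, and of YY1. RefSeq promoters (GRCh38.p14, 250 bases before to 50 after the start) were matched for 73 of the 89 nuclear members. The letters GCGCANGCG (NRF1), CCGGAAGT (ETS) and AAGATGGCG (YY1) were searched on both strands, overlapping matches of a motif counting as 1. The motifs do not contain each other. Matches are in capitals. The first 3 genes fell and the others rose.
UQCR10, chr22:29767119-29767418, plus strand: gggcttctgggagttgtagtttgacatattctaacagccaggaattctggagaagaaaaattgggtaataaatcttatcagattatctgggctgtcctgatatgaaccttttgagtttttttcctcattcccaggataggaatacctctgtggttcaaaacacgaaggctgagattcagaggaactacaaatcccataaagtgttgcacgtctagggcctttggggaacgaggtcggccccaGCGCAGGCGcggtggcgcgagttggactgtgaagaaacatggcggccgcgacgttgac
SDHA, chr5:218070-218369, plus strand: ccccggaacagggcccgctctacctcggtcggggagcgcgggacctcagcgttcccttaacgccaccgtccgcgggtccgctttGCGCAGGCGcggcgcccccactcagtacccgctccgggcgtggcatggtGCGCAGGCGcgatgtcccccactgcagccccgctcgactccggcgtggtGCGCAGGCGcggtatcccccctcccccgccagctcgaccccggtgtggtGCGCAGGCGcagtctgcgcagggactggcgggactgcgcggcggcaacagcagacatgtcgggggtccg
ATP5C1 (now ATP5F1C), chr10:7787927-7788226, plus strand: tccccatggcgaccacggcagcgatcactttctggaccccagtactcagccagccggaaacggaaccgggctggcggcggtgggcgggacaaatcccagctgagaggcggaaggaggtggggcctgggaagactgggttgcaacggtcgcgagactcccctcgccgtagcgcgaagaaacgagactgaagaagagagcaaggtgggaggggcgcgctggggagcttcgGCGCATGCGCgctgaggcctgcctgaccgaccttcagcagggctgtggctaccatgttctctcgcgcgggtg
NDUFB10, chr16:1959288-1959587, plus strand: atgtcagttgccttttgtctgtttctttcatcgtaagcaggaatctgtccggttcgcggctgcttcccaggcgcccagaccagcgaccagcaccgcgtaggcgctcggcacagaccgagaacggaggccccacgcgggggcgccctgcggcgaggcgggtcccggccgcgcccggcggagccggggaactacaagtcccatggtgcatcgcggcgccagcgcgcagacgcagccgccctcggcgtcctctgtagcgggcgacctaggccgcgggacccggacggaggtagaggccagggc
ATP5I (now ATP5ME), chr4:674227-674526, minus strand: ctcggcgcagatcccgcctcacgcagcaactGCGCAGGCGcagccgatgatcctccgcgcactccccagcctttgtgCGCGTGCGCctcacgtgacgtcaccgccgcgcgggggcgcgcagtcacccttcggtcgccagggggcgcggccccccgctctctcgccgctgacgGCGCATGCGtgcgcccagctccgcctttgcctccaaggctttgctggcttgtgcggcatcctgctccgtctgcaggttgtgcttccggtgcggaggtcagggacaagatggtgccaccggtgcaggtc

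The SDHA promoter held 4 matches to the NRF1 letters, each 49 bases from the one before and the nearest 19 bases before the start. UQCR10 held 1 that began 8 bases before the start, ATP5C1 held 1 that began 22 bases before it, ATP5I held 3 and NDUFB10 held 0 of any motif. Among nuclear members, 22 of 73 promoters held the NRF1 letters (30.1%), beside 16.4% of the promoters of genes tested and 8.05% of all promoters. By direction, 3 of the 5 members that fell, 9 of the 41 that rose and 10 of the 27 that did not pass held them. NDUFA2 and NDUFV2, the other members that fell and had a promoter, held no match. The median log2 difference was 0.07 for the 22 members with the letters and 0.11 for the 51 without. The YY1 letters were in 8 of 73 (10.96%), beside 4.47% of the promoters of genes tested and 1.85% of all. Their 8 carriers, among them NDUFS4 and SDHB, had a median of 0.16. The ETS letters were in 10 of 73 (13.7%), beside 9.90% of the promoters of genes tested and 4.44% of all. A match gives letters, not binding, and these counts were not tested.

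Assembly factors help the complexes form without staying in them. Of the 11 among the members, 7 rose and 0 fell, with a median of 0.11. ATP5SL, which despite its name is known as a complex I assembly factor (DMAC2), had the highest difference of the 102 members. It had 66.6, 63.6 and 64.7 CPM under AIL, against 44.9, 45.2 and 44.7 CPM under DMSO, 44.5% higher (log2 difference 0.52, SE 0.0338, limma adjusted p = 1.42e-09). NDUFAF2 and NDUFAF3, for complex I, rose by 0.32 and 0.28. SDHAF2, which helps attach the flavin to SDHA, averaged 19.7 ± 0.844 CPM in AIL cells and 16.4 ± 1.22 CPM in DMSO cells (SD, n = 3 each; 0.26, limma adjusted p = 0.00122), and so moved against SDHA. Other annotated genes hold 22.0% of the 50-base words of NDUFAF2 and 26.7% of those of SDHAF2. NDUFAF4, NDUFAF6 and COX7A2L, a factor of respiratory supercomplexes, rose by 0.11, 0.12 and 0.11. These 3 calls were weak. That for NDUFAF4 was lost with quantile normalization, with rescaling that leaves out mitochondrial genes, and without AIL replicate 2 or 3 or DMSO replicate 2 or 3. That for NDUFAF6 was lost under the same scalings and without AIL replicate 2 or 3 or DMSO replicate 1, and that for COX7A2L without AIL replicate 1 or DMSO replicate 2.

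A wider list of 38 measured assembly genes outside the naming rule showed a like count, with 24 higher (63.2%), 1 lower and a median of 0.15. COX19, a copper-related factor of complex IV, had 24.3, 24.9 and 22.6 CPM under AIL, against 15.2, 13.8 and 14.1 CPM under DMSO, 66.7% higher (log2 difference 0.70, limma adjusted p = 1.30e-08). TIMMDC1, for complex I, had 101.2, 97.4 and 100.0 CPM under AIL, against 70.2, 67.6 and 69.3 CPM under DMSO (0.52, limma adjusted p = 4.74e-10). HIGD2A, for complex IV, fell, with a log2 difference of -0.22. The list was written with earlier results of these data known, and the 28.2% of all genes called higher is its background.

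**Figure D5:**
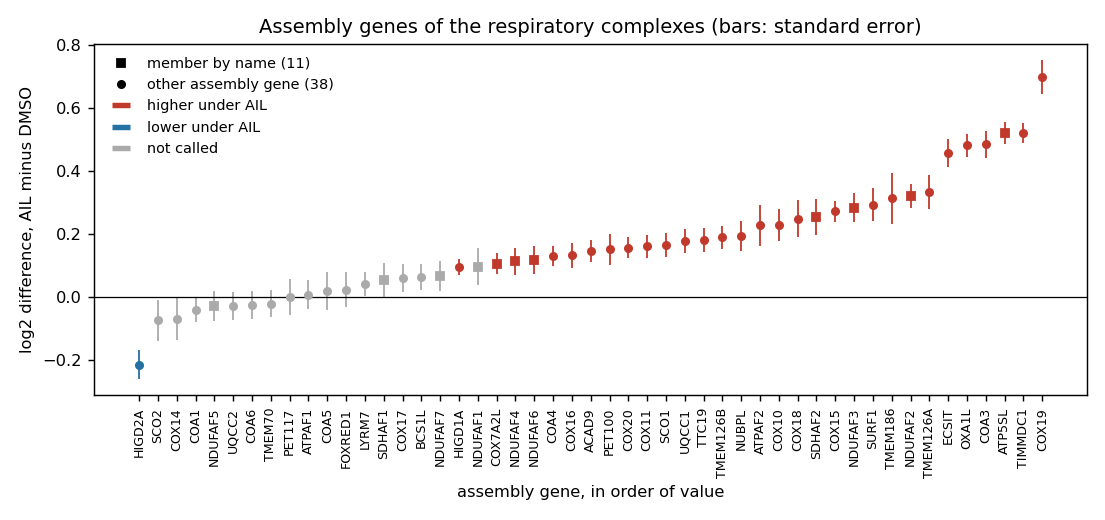
Log2 difference between AIL and DMSO (y axis, log2(CPM + 1) scale) for 49 assembly genes in order of value (x axis). Squares are the 11 members, circles the 38 other genes, bars standard errors, and colour gives the limma call. COX19, TIMMDC1 and ATP5SL are highest, and HIGD2A alone is called lower.

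Of 19 genes of mitochondrial DNA upkeep and transcription, 4 rose (21.1%) and 3 fell (15.8%), no larger shares than the 28.2% and 25.9% of all genes tested. TFAM, which packs and helps transcribe mitochondrial DNA, averaged 214.3 ± 5.05 CPM in AIL cells and 210.8 ± 7.70 CPM in DMSO cells (SD, n = 3 each; log2 difference 0.02, limma adjusted p = 0.508). POLRMT, the mitochondrial RNA polymerase, averaged 46.3 ± 3.83 CPM in AIL cells and 42.9 ± 2.86 CPM in DMSO cells (0.11, limma adjusted p = 0.114). TFAM and POLRMT were chosen after their values were seen. C10orf2, the Twinkle helicase, and MTERFD2, of the mitochondrial terminator family, rose by 0.52 and 0.48. MTERFD3 of the same family and TFB1M, an rRNA methyltransferase, fell by 0.30 and 0.22.

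Of 21 genes of mitochondrial RNA processing and stability, 7 rose (33.3%) and 5 fell (23.8%), near the 28.2% and 25.9% of all genes tested. PTCD2, which acts on the cytochrome b message in mouse, rose by 0.41, and GRSF1, of the mitochondrial RNA granule, by 0.22. REXO2, a mitochondrial oligoribonuclease, and FASTKD5, a processing factor, fell by 0.25 and 0.17. LRPPRC, which stabilises mitochondrial messages and was also chosen after its value was seen, averaged 308.9 ± 6.60 CPM in AIL cells and 268.9 ± 8.08 CPM in DMSO cells (SD, n = 3 each; 0.20, limma adjusted p = 1.10e-05). It rose while 10 of the 13 mitochondrial messages fell.

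Of 10 nuclear regulators of respiratory genes, 4 rose and 4 fell, in a table where 28.2% of all genes tested rose and 25.9% fell. NRF1 itself fell, with 15.1, 15.8 and 15.5 CPM under AIL, against 16.9, 18.7 and 19.8 CPM under DMSO (log2 difference -0.24, SE 0.0584, limma adjusted p = 0.00227). CREB1 fell by 0.22, while the coactivator PPARGC1B and GABPB2, a partner of GABPA, rose by 0.30 and 0.23. GABPA itself fell by 0.11 (limma adjusted p = 0.00791), and GABPB1 did not pass (0.01, limma adjusted p = 0.816). Of 18 genes of electron carriers and other entry points, 7 rose (38.9%) and 1 fell (5.56%), beside the same shares of all genes. COQ5, of ubiquinone synthesis, and SQRDL, which feeds electrons from sulphide to ubiquinone, rose by 0.57 and 0.41. ETFDH, which feeds in electrons from fat oxidation, fell by 0.26 on the log2 scale.

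Nuclear members have short transcripts, with a median length of 720 bases in GENCODE 29, beside 1814 bases over the 10969 tested genes with a length. Among 2656 other tested genes under 1000 bases, 34.3% rose, 23.7% fell and the median was 0.03. Among nuclear members, 59.1% of the 66 under 1000 bases and 56.5% of the 23 longer ones rose. The libraries of the AIL group also differed among themselves. Library AIL 1 was the highest of its group for 44 of the 76 nuclear subunits, and AIL 2 was the lowest for 44, with median deviations of 0.03 and -0.03 on the log2 scale. Without AIL replicate 1, 42 nuclear members were called higher and 6 lower.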

How the data were processed

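RNA-seq libraries of 3 AIL and 3 DMSO cultures were compared. The authors deposited TMM-normalized CPM, per the file headers and name, printed to 2 decimals. RSEM and edgeR 3.8.5 are named, with no role, in the submitters' processing notes. For the aligner, build, annotation and strand use, the sources used here give nothing. TMM assumes that the bulk of genes is stable, so a change common to almost every transcript would be scaled away. Library preparation used an Illumina TruSeq kit, per the labels' protocols.

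Groups and replicate numbers came from the sample titles. Low values were multiples of a step worth 1 read, and depth is the inverse of that step. Below 2000 reads, 99.9 to 100.0% of values were whole to within 0.2 reads and 52.4 to 65.1% to within 0.1 reads, where printing to 2 decimals alone can move a value by up to 0.163 to 0.190 reads. A count test required 95% within 0.1 reads, so none was run.

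Differences were tested with limma 3.58.1 (R 4.3.3) on log2(CPM + 1) with an intensity trend, two-sided, over the 11069 genes whose mean reached 1 CPM, with Benjamini-Hochberg adjustment over all of them. The test was also run on simulated data, and no conclusion about the calls given here is drawn from that run. This scale understates the change of low genes. The members, lists and motif letters were chosen with earlier results of these data known, and 2 of the motifs were shortened by 1 letter after a first search. Named genes are all mitochondrial members, up to 3 highest and 3 lowest called subunits per complex, the most read subunit, SDH subunits, CYC1, isoform groups, called assembly factors, and up to 2 called genes each way per wider list. Other genes named with values were chosen after those values were seen. Symbols were matched through older names to GENCODE 29 (102 of 102 members) for lengths and shared 50-base words, and to RefSeq promoters, an alias being used where the promoter lay at the gene's own place.

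Deviations from group means correlated at 0.159, 0.133 and 0.129 between same-numbered AIL and DMSO samples, above 0.1 in each pair, and at -0.179 to 0.0210 between others. The pairing comes from the data alone, and blocking on the replicate number was an alternative. Other alternatives were pseudocounts of 0.1 and 5, other filters and scalings, no trend, and leaving out each replicate. Some genes are not reported here.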

Additional observations from a re-analysis of the deposited data

How the results depend on the processing

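Under 15 alternatives, 10 mitochondrial members were always called lower and 0 higher. The nuclear members called higher numbered 42 to 55 and those called lower 5 to 6. Of 66 named genes, 53 kept both their call and the sign of their difference throughout. Among the named genes, calls changed only for NDUFS1, SDHC, COX6C, COX7A2L, NDUFAF4 and NDUFAF6. The other named genes outside the 53 changed sign but stayed uncalled. With the replicate block 55 nuclear members were higher, and NDUFS1 gained a call (limma adjusted p = 0.0297). The block changed no other call of a named gene. Summed CPM of the nuclear members differed by 6.74% with rescaling that left out mitochondrial genes. That of the mitochondrial members differed by -22.8% with quantile normalization and -16.05% with that rescaling. The rescaling gave the other listed genes the same total in each library. Before it, all listed genes held 87.2%, 85.7% and 86.1% of the CPM scale in the AIL libraries. In the DMSO libraries they held 84.7%, 84.4% and 85.0%. With it, 42 nuclear members were called higher, against 52 in the main test. How far the difference in listed share accounts for these shifts was not tested. Quantile normalization moved the log2 differences of MT-CO1 (-0.463), MT-CO3 (-0.359) and ATP5B (0.0682) by over 1.5 times, and their calls held. Uncalled genes with differences near 0 changed sign: COX6A1 (0.0176) and COX7A2 (0.000543) with quantile normalization, COX4I1 (-0.00685), NDUFA4 (-0.0109) and ATP5G3 (-0.0270) with that rescaling, and ATP5G3 (-0.00791) with median-of-ratios scaling. On leaving out each replicate, differences ran from -0.120 to 0.0117 for MT-ND3, -0.0355 to 0.0860 for MT-CYB, -0.0532 to 0.00016 for COX7A2, -0.0122 to 0.0569 for NDUFA4 and -0.0288 to 0.0179 for ATP5G3. The planned count test was not run, since values printed to 2 decimals missed its limit of 0.1 reads; no count test therefore stands beside limma. Precision is lowest for genes with few reads, and MT-ATP8 had the lowest level of the mitochondrial members.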
